A study of Mus musculus with 22 samples.

Results

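The genes described here are 41 genes of mitosis and proliferation, measured in the lung epithelium of mice that carried changed alleles of the long noncoding RNA gene NANCI, of the neighbouring transcription factor gene Nkx2-1, or of both. The members were a list of gene symbols matched through the Ensembl gene identifiers of the files. All 41 had a value in every library, among 13750 genes measured at embryonic day E18.5 and 15958 measured at 6 months.

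Going by its title, the series concerns how NANCI and Nkx2-1 buffer the expression of Nkx2-1. The wild-type group (WT) was NANCI-+/+. The NANCI group was NANCI-CreERT2:RFP/CreERT2:RFP, homozygous for an allele whose name stands for an inducible Cre enzyme and a red reporter. The Nkx group was Nkx2.1-GFP/+, heterozygous for an allele whose name stands for a green reporter. The Double group was NANCI-CreERT2:RFP/+:Nkx2.1-GFP/+, with 1 copy of each allele. At E18.5 there were 3 libraries of each of the 4 groups, from cells pulled down on magnetic beads by the epithelial surface protein EpCAM. At 6 months there were 3 WT, 3 Nkx and 4 Double libraries, from cells sorted as EpCAM+ and negative for CD45 and CD31, the surface proteins of leukocytes and endothelium. The sources used here do not say which part of each gene the alleles replace, nor whether the replicates were separate animals. The p-values therefore measure the spread between these libraries, which may be technical in part.

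Dividing cells switch on a late set of genes in G2 phase, after DNA has been copied, whose products condense chromosomes, build the spindle, attach and check the kinetochores and cut the cell apart. In resting cells the DREAM complex, built on the MuvB core, holds these genes down through a short promoter sequence called the cell cycle genes homology region (CHR). In cycling cells B-Myb and FOXM1 join MuvB on the same promoters and activate them, with NF-Y bound at neighbouring CCAAT boxes. In the lung, the fetal epithelium divides as it grows, while the adult epithelium divides rarely unless it is injured.

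The values were log2 expression, normalized by the authors so that all libraries of 1 age share 1 distribution. Library medians were all 9.90 at E18.5 and lay between 9.58 and 9.59 at 6 months, and the read totals are unknown. A shift common to most genes would be removed by this scaling, and levels are not per gene length, so each gene is compared with itself across libraries. In such bulk samples a larger share of dividing cells and more RNA per dividing cell cannot be told apart. Differences between groups are log2 fold changes from 1 limma model per age over all genes, and ± after them marks the standard error. A gene is said to rise or fall, or to pass, where its adjusted p was under 0.05.

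To show what the members share beyond their function, their promoters were searched for the CHR element TTTGAA and for the NF-Y box CCAAT, each on both strands. The windows held 300 bases, 250 before and 50 after the annotated start (RefSeq, GRCm38.p6), and were at hand for 35 of the 41 members. Aurkb, Ccna2, Foxm1, Kif20a, Pbk and Tpx2 were not in the table. The CHR element was found in 25 of the 35 members (71.4%), against 20.2% of 27025 genes with such a window. The NF-Y box was found in 27 of the 35 (77.1%), against 41.1% of genes. Both were found in 22 members (62.9%), against 7.97% of genes. A variant, TTCGAA, was found in 3 members (8.57%), against 1.80% of genes. A CHR match and an NF-Y match can share at most 1 letter.

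**Figure D1:**
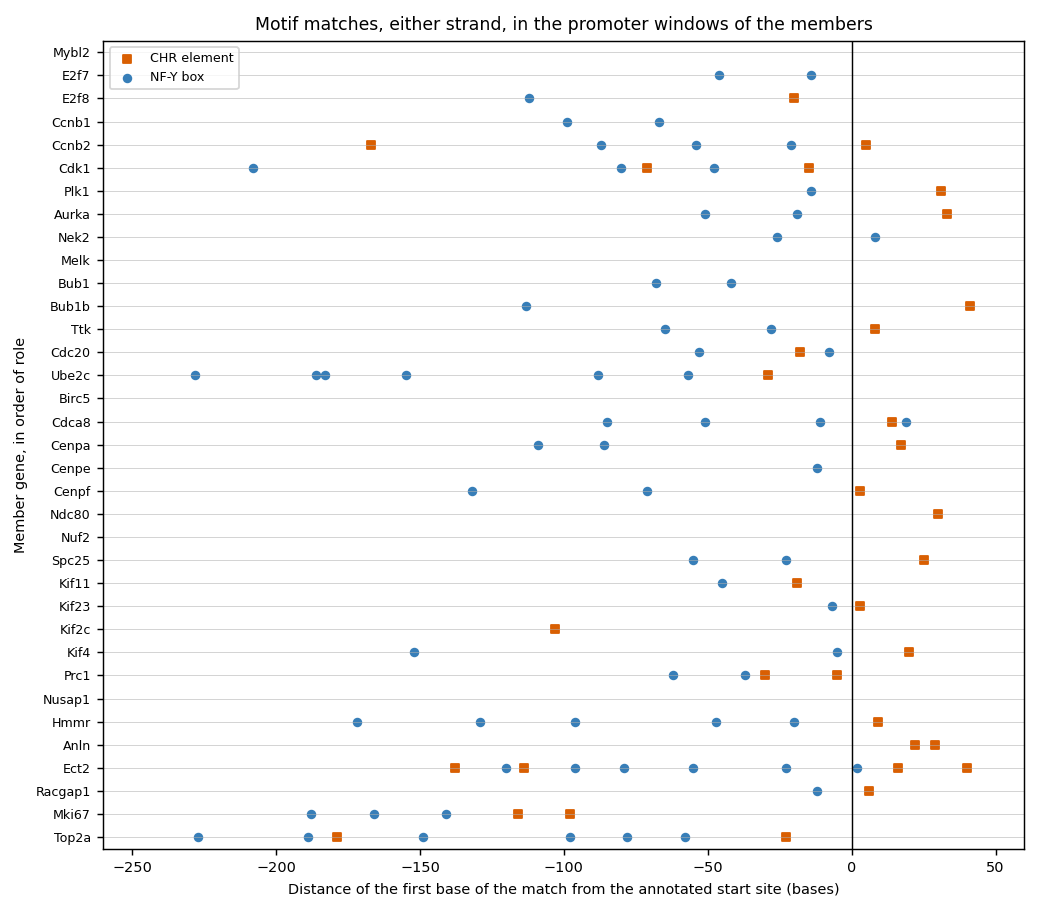
Matches to the CHR element (squares) and the NF-Y box (circles) in the promoter windows of 35 members, with the distance of the first base of each match from the annotated start site in bases on the x axis and 1 member per row. Of 34 CHR matches over 37 windows, 25 lay within 40 bases of the start, in 22 members. Ect2 and Prc1 had overlapping windows from different annotated starts, so their sites were counted in each. Mybl2, Melk, Birc5, Nuf2 and Nusap1 had neither motif.

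Stretches of 145 bases from just upstream of the start are shown for 4 members that moved most or are best known, and then for E2f7 and Mybl2, which did not pass at E18.5. The coding strand is given 5′ to 3′, in lower case, with CHR and NF-Y matches on either strand in capitals.
Cdk1, chr10:69352918-69353062, minus strand: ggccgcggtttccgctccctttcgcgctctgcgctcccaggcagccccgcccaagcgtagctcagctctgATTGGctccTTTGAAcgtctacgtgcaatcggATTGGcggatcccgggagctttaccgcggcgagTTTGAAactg
Ube2c, chr2:164769779-164769923, plus strand: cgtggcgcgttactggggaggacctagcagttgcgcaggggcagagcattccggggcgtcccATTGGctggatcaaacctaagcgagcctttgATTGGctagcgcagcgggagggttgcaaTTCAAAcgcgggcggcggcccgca
Mki67, chr7:135716385-135716529, minus strand: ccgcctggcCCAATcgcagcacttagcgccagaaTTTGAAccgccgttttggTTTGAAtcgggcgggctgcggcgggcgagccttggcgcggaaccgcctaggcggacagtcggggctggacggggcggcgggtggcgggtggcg
E2f8, chr7:48881602-48881746, minus strand: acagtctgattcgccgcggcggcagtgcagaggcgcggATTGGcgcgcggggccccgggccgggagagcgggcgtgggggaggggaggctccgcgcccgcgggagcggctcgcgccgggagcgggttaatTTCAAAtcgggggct
E2f7, chr10:110745289-110745433, plus strand: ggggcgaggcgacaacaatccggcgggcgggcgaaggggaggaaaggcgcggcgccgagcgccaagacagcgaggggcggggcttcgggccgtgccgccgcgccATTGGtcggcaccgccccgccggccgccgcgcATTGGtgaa
Mybl2, chr2:163054485-163054629, plus strand: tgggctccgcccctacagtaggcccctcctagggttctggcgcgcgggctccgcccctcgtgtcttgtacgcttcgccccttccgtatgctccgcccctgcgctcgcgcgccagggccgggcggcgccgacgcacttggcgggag

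In the Cdk1 stretch, 2 NF-Y boxes alternate with 2 CHR elements, the nearer starting 15 bases before the start site. Ube2c has 2 NF-Y boxes and then a CHR element 29 bases before the start. E2f8 has 1 of each. The E2f7 stretch holds 2 NF-Y boxes and no CHR element, and the Mybl2 stretch neither. These matches are letters in a window and not measured sites of binding.

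Before the comparisons, the libraries were compared over the members. At E18.5 the mean of the 41 members was 8.55 ± 0.24 in WT, 8.67 ± 0.23 in NANCI, 9.48 ± 0.08 in Nkx and 9.93 ± 0.09 in Double libraries (SD, n = 3 each). The libraries of each group lay close together: 8.31 to 8.79 in WT, 8.44 to 8.90 in NANCI, 9.39 to 9.54 in Nkx and 9.83 to 9.99 in Double. At 6 months the mean was 6.77 ± 0.72 in WT (n = 3), 6.58 ± 0.33 in Nkx (n = 3) and 8.15 ± 0.54 in Double libraries (n = 4). Single libraries stood apart in most members. WT replicate 2 had the highest value of its group in 37 of 41 members and a mean of 7.58, where the other WT libraries had 6.53 and 6.20. Double replicate 4 had the lowest value of its group in 36 of 41 members and a mean of 7.45, where the other Double libraries had 8.01 to 8.61. In the Nkx group, replicate 3 was the highest in 33 members, with a mean of 6.95 against 6.48 and 6.30. At E18.5, where the libraries of a group lay closer together, WT replicate 3 and NANCI replicate 1 were each the highest of their group in 31 members and NANCI replicate 2 the lowest in 31. Double replicate 4 at 6 months lay below WT replicate 2 in 25 of the 41 members, and the 6-month counts against WT are also given without these 2 libraries. In the 3 comparisons where no member passed, none passed without any single library either.

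**Figure D2:**
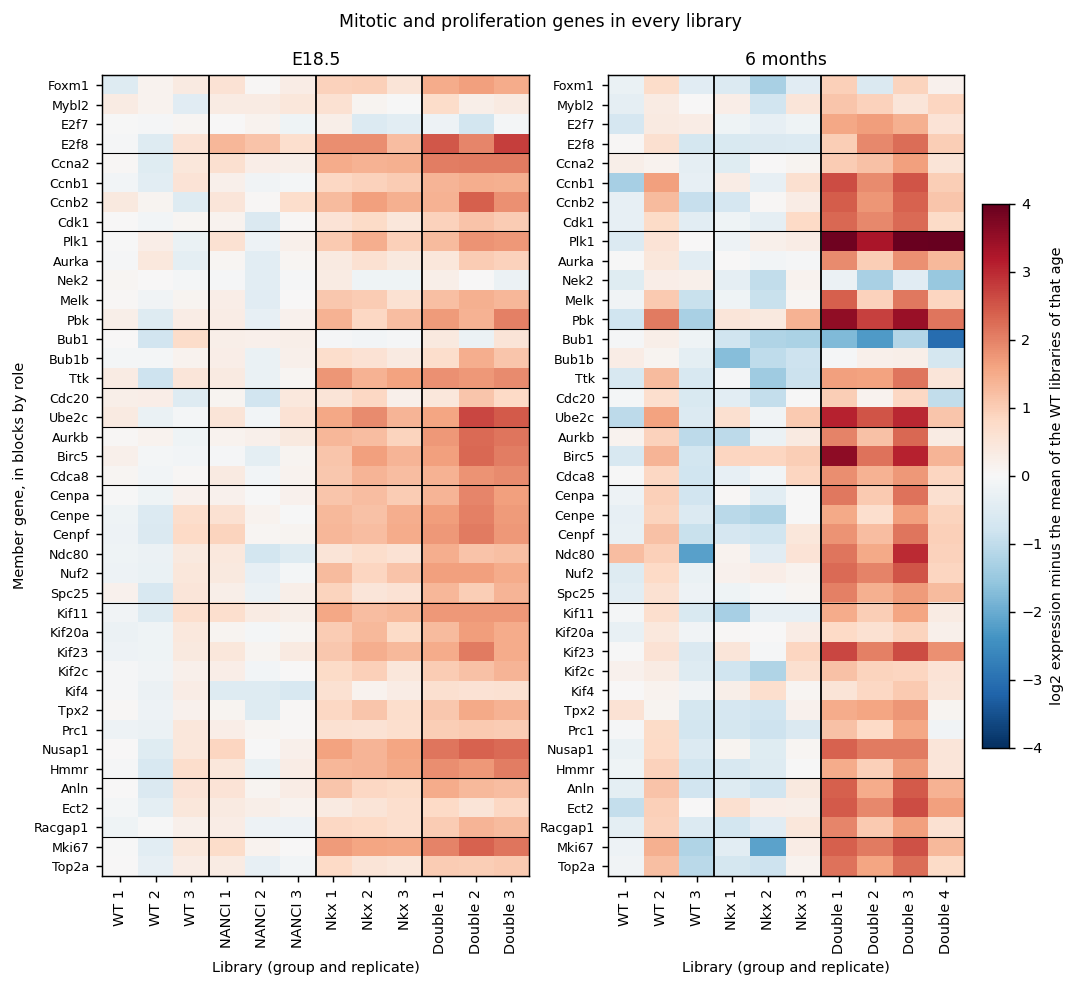
Log2 expression of the 41 members (rows, in blocks by role) in each library (columns), minus the mean of the WT libraries of the same age, on a colour scale that ends at −4 and 4. The E18.5 Nkx and Double columns are red in nearly all rows, while at 6 months the Double columns are red and the Nkx columns are not.

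The E18.5 NANCI comparison asked what 2 copies of the NANCI allele changed. No member differed between NANCI and WT libraries in limma, and 0% of all genes passed as higher and 0% as lower. Of the members, 27 lay above 0 and 14 below, with a median log2 fold change of 0.11 (0.01 over all genes). At an unadjusted p under 0.05, 1 member was higher, where 1.4% of all genes were, and 1 was lower, where 1.7% were. The first was E2f8, an atypical E2F that represses E2F targets, at 5.60, 5.15 and 6.23 in WT and 6.99, 6.78 and 6.32 in NANCI libraries. All NANCI libraries lay above all WT libraries, by little, and the difference of 1.04 ± 0.34 on the log2 scale did not pass (limma adjusted p = 0.978). The second was Kif4, a motor that rides on chromosome arms, at 9.10, 8.95 and 9.45 in WT and 8.65, 8.65 and 8.52 in NANCI libraries. Its groups did not overlap either, and the difference of −0.56 ± 0.17 did not pass (limma adjusted p = 0.978). The median of the members lay between 0.01 and 0.23 when single libraries were left out. With limma's array weights, which count less a library that departs from its group, 6 members passed. E2f8, Foxm1, Kif11, Kif23 and Prc1 were higher and Kif4 was lower. The share of all genes that passed with these weights is not given here, so this count has no background beside it.

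In E18.5 Nkx libraries, with 1 copy of the Nkx2.1-GFP allele, 27 of the 41 members rose against WT and none fell. Over all genes, 3.67% rose and 3.65% fell. The median log2 fold change of the members was 0.93, against 0.02 over all genes. In 32 members every Nkx library lay above every WT library, a pattern that 11.7% of all genes had. The members that did not pass were Foxm1, Mybl2, E2f7, Cdk1, Aurka, Nek2, Bub1, Bub1b, Cdc20, Ndc80, Spc25, Kif4, Ect2 and Top2a, of which E2f7, Nek2 and Bub1 lay below 0.

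Mki67, E2f8 and Ube2c led this comparison. Mki67 encodes Ki-67, the coat protein of mitotic chromosomes that pathologists stain to count cycling cells (ENSMUSG00000031004; GRCm38 chromosome 7, 135689784 to 135716361, minus strand). WT libraries had log2 levels of 11.13, 10.71 and 11.58, and Nkx libraries of 12.84, 12.71 and 12.67. The 3 Nkx libraries lay within 0.165 of each other and above all WT libraries, and Mki67 rose by 1.60 ± 0.22 (limma adjusted p = 0.00118). E2f8 lay at 7.53, 7.53 and 6.89 in Nkx libraries, above all WT libraries, and rose by 1.66 ± 0.34 (limma adjusted p = 0.0112). Ube2c, the ubiquitin-conjugating enzyme that works with the anaphase-promoting complex (APC/C), was 7.67, 7.07 and 7.23 in WT and 8.88, 9.22 and 8.67 in Nkx libraries. It rose by 1.60 ± 0.30 (limma adjusted p = 0.00729), with no overlap. All 3 of these held without each library in turn. E2f8 did not pass when the Nkx and WT libraries were fitted alone (limma adjusted p = 0.0579). The count of 27 varied with the libraries that entered the fit. It was 14 without WT replicate 1, 18 to 31 without any other single library, and 11 when the Nkx and WT libraries were fitted alone. The shares of all genes that passed in these refits are not given here.

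In E18.5 Double libraries, 36 of the 41 members rose against WT and none fell, where 7.13% of all genes rose and 7.47% fell. The median log2 fold change of the members was 1.48 (0.02 over all genes), and 33 members were higher by at least 1, that is at least doubled on the deposited scale. In 37 members the Double libraries lay above the WT libraries without overlap, which 14% of all genes did. Without single libraries the count was 32 to 35, and the shares of all genes that passed in those fits are not given here.

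Among the regulators, Foxm1 and E2f8 rose and Mybl2 and E2f7 did not. Foxm1, the forkhead activator of G2 and M phase genes, was 7.50, 8.17 and 8.39 in WT and 9.49, 9.66 and 9.50 in Double libraries. The groups did not overlap, and it rose by 1.53 ± 0.24 on the log2 scale (limma adjusted p = 0.0012). E2f8 reached 8.13, 7.61 and 8.41 in Double libraries, the lowest of them 1.38 above the highest WT library. Its rise of 2.39 ± 0.34 was the largest of the members (limma adjusted p = 0.000672). E2f7, its close relative and also a repressor of E2F targets (ENSMUSG00000020185; GRCm38 chromosome 10, 110745439 to 110787384, plus strand), was 9.82, 9.77 and 9.89 in WT and 9.63, 9.10 and 9.75 in Double libraries. All Double libraries lay just below the WT libraries, and the difference of −0.33 ± 0.22 did not pass (limma adjusted p = 0.378). Mybl2, which encodes B-Myb, was 7.01, 6.85 and 6.23 in WT and 7.42, 6.95 and 7.06 in Double libraries. These values overlapped, and the difference of 0.45 ± 0.28 did not pass (limma adjusted p = 0.334).

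All 4 cyclin and kinase genes of mitotic entry rose. Cdk1, the kinase that drives entry into mitosis, was 9.93, 9.81 and 9.99 in WT and 10.83, 11.05 and 10.91 in Double libraries. The spread within groups was narrow, and Cdk1 rose by 1.02 ± 0.18 (limma adjusted p = 0.00277). Ccna2 encodes cyclin A2, a partner of CDK1 and CDK2, and lay at 8.75, 8.24 and 9.16 in WT and at 10.76, 10.78 and 10.79 in Double libraries. It rose by 2.06 ± 0.20 and had the smallest adjusted p of the members (6.98e-05 in limma). Ccnb1, for cyclin B1, was 8.65, 8.35 and 9.31 in WT and 10.14, 10.23 and 10.19 in Double libraries. It rose by 1.42 ± 0.21 (limma adjusted p = 0.000967), and its sister gene Ccnb2 rose by 1.86 ± 0.30.

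Of the 5 other mitotic kinases, 4 rose. Plk1 encodes a kinase of mitotic entry, centrosomes and cytokinesis (ENSMUSG00000030867; GRCm38 chromosome 7, 122159439 to 122169873, plus strand). It was 6.56, 6.85 and 6.33 in WT and 7.83, 8.37 and 8.30 in Double libraries, and rose by 1.59 ± 0.27 (limma adjusted p = 0.00239). Pbk, a mitotic kinase of the MAPKK family, was the largest change of this role at 1.71 ± 0.26 (limma adjusted p = 0.00122). Aurka, the centrosome and spindle pole kinase, rose least, by 0.80. Nek2, a kinase that parts the centrosomes, was 10.56, 10.50 and 10.43 in WT and 10.72, 10.51 and 10.28 in Double libraries. Its Double values lay on both sides of its WT values, at a difference of 0.01.

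The spindle checkpoint genes split. Ttk, the MPS1 kinase that starts the checkpoint, was 6.96, 5.82 and 7.13 in WT and 8.46, 8.37 and 8.53 in Double libraries. It rose by 1.82 ± 0.32 (limma adjusted p = 0.00246), and Bub1b, the checkpoint protein BUBR1, rose by 1.08. Bub1, the kinetochore kinase of the same checkpoint, was 9.61, 8.81 and 10.33 in WT and 9.98, 9.36 and 10.10 in Double libraries. Its WT libraries spanned its Double libraries, and the difference of 0.23 did not pass (limma adjusted p = 0.701).

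Of the APC/C partners, Ube2c reached 8.91, 10.002 and 9.77 in Double libraries and rose by 2.24 ± 0.30 (limma adjusted p = 0.000468). Cdc20, the APC/C activator that the checkpoint restrains, was 9.10, 9.12 and 8.36 in WT and 9.33, 9.98 and 9.65 in Double libraries. The Double libraries lay above the WT libraries, but the difference of 0.79 ± 0.31 did not pass (limma adjusted p = 0.12). The chromosomal passenger genes all rose: Aurkb, the kinase of the complex, by 2.05 ± 0.22 (limma adjusted p = 0.000121), Birc5, for survivin, by 1.99, and Cdca8, for borealin, by 1.69. Aurkb was 6.79, 6.90 and 6.57 in WT and 8.50, 9.02 and 8.89 in Double libraries.

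All 6 centromere and kinetochore genes rose, by 1.22 to 1.85. Cenpf, a large protein of the outer kinetochore, was 9.14, 8.78 and 10.13 in WT and 11.09, 11.42 and 11.08 in Double libraries. It rose by 1.85 ± 0.30 (limma adjusted p = 0.0018). The 3 genes of the microtubule-holding NDC80 complex, Ndc80, Nuf2 and Spc25, rose by 1.26, 1.59 and 1.22. All 9 spindle and motor genes rose too, by 0.61 (Kif4) to 2.26 (Nusap1). Nusap1, which bundles microtubules around chromosomes, was 8.08, 7.59 and 8.51 in WT and 10.18, 10.42 and 10.34 in Double libraries. The lowest Double library lay 1.67 above the highest WT library, and the rise was 2.26 ± 0.26 (limma adjusted p = 0.000158). Tpx2, which activates Aurora A on the spindle, rose by 1.32, Kif11, the motor that keeps the spindle bipolar, by 1.73, and Prc1, which bundles the central spindle, by 1.01.

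The cytokinesis genes rose by 0.72 for Ect2, the RHOA activator, 1.22 for Racgap1, of centralspindlin, and 1.34 for Anln, the ring scaffold anillin. Anln was 9.21, 8.63 and 9.74 in WT and 10.68, 10.49 and 10.44 in Double libraries (1.34 ± 0.24, limma adjusted p = 0.00277). Of the chromosome genes, Mki67 reached 13.12, 13.51 and 13.28 in Double libraries and rose by 2.17 ± 0.22 (limma adjusted p = 8.62e-05), a 4.49-fold rise on the deposited scale. Top2a, the topoisomerase that untangles sister chromatids, was 11.75, 11.42 and 12.04 in WT and 12.74, 12.72 and 12.78 in Double libraries. It rose by 1.01 ± 0.18 (limma adjusted p = 0.0032), with no overlap and with Double libraries within 0.06 of each other.

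**Figure D3:**
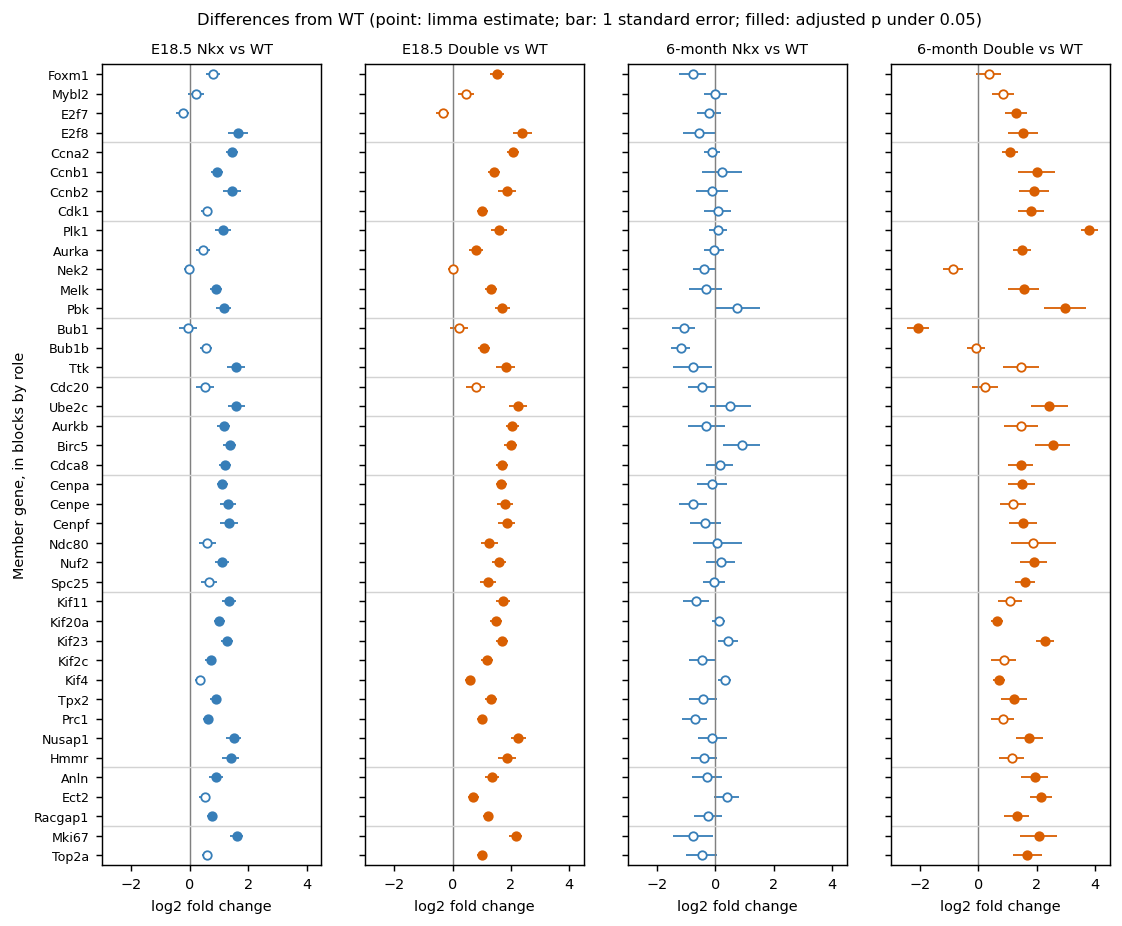
Log2 fold change of each member against WT in limma (x axis; bars show 1 standard error; filled points had an adjusted p under 0.05), for Nkx and Double libraries at E18.5 and at 6 months. At E18.5, 27 members passed in Nkx and 36 in Double libraries; at 6 months none passed in Nkx libraries, and 28 did in Double libraries, Bub1 on the lower side.

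The motifs were set beside this comparison as a description. Of the members with a promoter window, 30 rose in E18.5 Double libraries and 24 of these held a CHR element. The other 5 did not pass, and of these Cdc20 alone held one. The variant TTCGAA was held by 2 of the 30 and by 1 of the 5 (Bub1). The NF-Y box was held by 23 of the 30 and by 4 of the 5 (Bub1, Cdc20, E2f7 and Nek2). The 6 risen members without a CHR element were Birc5, Ccnb1, Cenpe, Melk, Nuf2 and Nusap1.

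Double and Nkx libraries at E18.5 were also compared with each other, to ask what 1 copy of the NANCI allele added to the Nkx2.1-GFP allele. No member passed in limma, where 0.00727% of all genes (1 gene) passed as higher and 0% as lower. Even so, 40 of the 41 members lay above 0, all but E2f7, with a median log2 fold change of 0.45 (−0.00 over all genes). In 26 members every Double library lay above every Nkx library, which 4.7% of all genes did. At an unadjusted p under 0.05, 18 members were higher, where 2.2% of all genes were, and none was lower, where 1.86% were. Members are not independent of each other, so these counts describe 1 shared difference between 3 and 3 libraries. The smallest p-values were those of Aurkb and Foxm1. Aurkb had levels of 8.08, 8.001 and 7.65 in Nkx libraries, all below its Double levels of 8.50, 9.02 and 8.89 (0.89 ± 0.22, limma adjusted p = 0.565). Foxm1 was 8.93, 8.96 and 8.55 in Nkx libraries, below all Double libraries (0.74 ± 0.24, limma adjusted p = 0.875). The median was 0.39 to 0.54 without single libraries, and no member passed with the replicate number as a block either. The group means of 38 members were ordered WT, then Nkx, then Double. Those 3 comparisons share libraries, so the order is a description.

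Markers of other cell types moved with these E18.5 results. Over all genes 7.47% fell and 7.13% rose in Double libraries against WT, and 3.65% fell in Nkx libraries. Of 15 leukocyte markers 8 were measured, and all 8 fell in Double and 5 in Nkx libraries against WT. Their summed level was 10.2 to 10.5 in WT, 9.21 to 9.61 in NANCI, 7.37 to 7.91 in Nkx and 7.16 to 7.53 in Double libraries, on the log2 scale. Of 10 endothelial markers 6 were measured, and 3 fell in Double libraries, where their summed level was 11.6 to 11.97 against 12.6 to 13.1 in WT. Of 10 mesenchymal markers 4 were measured, and 2 fell and 1 rose in Double libraries. The single erythroid marker measured was 5.44 to 6.87 in Double and 3.70 to 5.39 in WT libraries, without overlap, and its difference of 1.75 did not pass (limma adjusted p = 0.0779). The 12 epithelial markers summed to 19.5 to 20.3 in WT and 19.1 to 19.3 in Double libraries, where 2 of them rose and 3 fell, at differences from −3.10 to 0.58. The members moved opposite to the leukocyte and endothelial markers and in the direction of the erythroid marker, and the part of such cells in the result was not tested. Sex patterns read from the libraries were 2 female and 1 male in each of WT, Nkx and Double, and 3 male in NANCI. With sex as a covariate 35 members passed in Double and 25 in Nkx libraries against WT. The share of all genes that passed in that fit is not given here.

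At 6 months, no member passed in limma between Nkx and WT libraries, where 1.52% of all genes rose and 1.11% fell. Of the members, 14 lay above 0 and 27 below, and the median log2 fold change was −0.22 (0.01 over all genes). That median rested on the WT library that stood apart: without WT replicate 2 it was 0.19. At an unadjusted p under 0.05 no member was higher, where 12% of all genes were, and 2 were lower, where 9.93% were. These were Bub1 and Bub1b, the 2 members whose Nkx libraries all lay below the WT libraries, a pattern of 14.4% of all genes. Bub1b was 8.60, 8.41 and 7.91 in WT and 6.61, 7.28 and 7.47 in Nkx libraries (−1.18 ± 0.32, limma adjusted p = 0.077). Bub1 was 8.99, 9.26 and 8.86 in WT and 8.26, 7.83 and 7.76 in Nkx libraries (−1.09 ± 0.39, limma adjusted p = 0.147). Bub1b passed with array weights or a depth covariate, and Bub1 passed when the 2 groups were fitted alone, in each case as the sole member.

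In 6-month Double libraries, 27 of the 41 members rose against WT and Bub1 fell. Over all genes 18.4% rose and 17.9% fell. The median log2 fold change of the members was 1.49, against 0.06 over all genes, and 25 members were higher by at least 1. The groups did not overlap in 16 members that were higher in Double libraries, which 21.1% of all genes were. Without WT replicate 2 and Double replicate 4 the groups did not overlap in 37 members, and in this smaller layout 28.5% of all genes were higher without overlap. These 2 libraries were picked by their values in the members, and leaving them out favours separation in the members. The 28.5% is therefore not a like background, and nothing is drawn from the 37. The number of members that rose was 13 without WT replicate 3, 16 without WT replicate 1 or without Double replicate 1, and 17 without Double replicate 3. It was 32 without WT replicate 2 and 31 without Double replicate 4. Without both of these libraries, a choice made after their values were seen, 33 members rose and 1 fell. For these refits the shares of all genes that passed are not given here, so the counts show only how the result depends on single libraries.

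Plk1 had the largest change of the members. It was 6.02, 7.11 and 6.60 in WT and 10.48, 9.84, 10.53 and 10.66 in Double libraries. The lowest Double library lay 2.73 above the highest WT library, and Double replicate 4, low in most members, was the highest of all. Plk1 rose by 3.80 ± 0.29 (limma adjusted p = 5.35e-06), a 13.9-fold rise on the deposited scale, and ranked 73 of 15958 genes by p. An uncharacterised gene model, Gm44985, overlaps its exons on the opposite strand by 156 bases, and reads of the 2 cannot be told apart if strand was not kept. The other kinases followed in part. Pbk was 4.14, 7.03 and 3.65 in WT and 8.50, 7.67, 8.40 and 7.09 in Double libraries, and rose by 2.97 ± 0.71 (limma adjusted p = 0.00704). Its WT libraries were far apart, with replicate 2 just below the lowest Double library. Aurka rose by 1.502 and Melk, a kinase of proliferating progenitors, by 1.57, while Nek2 lay at −0.87 (limma adjusted p = 0.0732).

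Bub1 went the other way (ENSMUSG00000027379; GRCm38 chromosome 2, 127801122 to 127831865, minus strand). It was 8.99, 9.26 and 8.86 in WT and 7.29, 6.76, 7.86 and 6.00 in Double libraries. All 4 Double libraries lay well below the lowest WT library, and Bub1 fell by 2.06 ± 0.37 on the log2 scale (limma adjusted p = 0.00123). This held without each library in turn. The other checkpoint genes did not pass: Bub1b lay at −0.07, and Ttk at 1.47 (limma adjusted p = 0.0908), with 4.14, 6.04 and 4.14 in WT and 6.41, 6.40, 6.90 and 5.26 in Double libraries.

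Of the regulators, E2f7 and E2f8 rose. E2f7 was 5.19, 6.21 and 6.14 in WT and 7.41, 7.52, 7.27 and 6.41 in Double libraries, with no overlap (1.30 ± 0.38, limma adjusted p = 0.0199). It no longer passed without WT replicate 1 or Double replicate 1, nor with the sex covariate (limma adjusted p = 0.107). E2f8 was 4.74, 5.33 and 3.98 in WT and 5.68, 6.61, 6.90 and 5.67 in Double libraries (1.54 ± 0.51, limma adjusted p = 0.0355). It passed without 3 of the 7 single libraries only. The E2f8 call was also lost with the sex covariate (limma adjusted p = 0.0523), the replicate block (0.0635) and the fit of 2 groups alone (0.0536). Foxm1 was 6.83, 7.83 and 6.66 in WT and 8.07, 6.54, 7.99 and 7.28 in Double libraries, which overlapped (0.36 ± 0.43, limma adjusted p = 0.552). Mybl2 did not pass either (0.85 ± 0.37, limma adjusted p = 0.0928), though its Double values of 7.22, 7.02, 6.61 and 6.96 lay above its WT values of 5.76, 6.45 and 6.12.

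All 4 cyclin and kinase genes rose again. Cdk1 was 6.68, 7.77 and 6.60 in WT and 9.32, 8.93, 9.27 and 7.77 in Double libraries, with Double replicate 4 level with WT replicate 2 (1.81 ± 0.44, limma adjusted p = 0.00759). Ccnb1 was 4.14, 7.11 and 5.15 in WT and 8.07, 7.36, 7.99 and 6.45 in Double libraries. Its groups overlapped, with means of 5.47 and 7.47. It rose, with a standard error of 0.64 (limma adjusted p = 0.0299), but passed without 3 of the 7 single libraries only. The Ccnb1 call was also lost with the sex covariate (limma adjusted p = 0.0554). Ccna2 rose by 1.09 and Ccnb2 by 1.91. Among the APC/C partners, Ube2c rose by 2.44, and Cdc20 was 8.61, 9.37 and 8.10 in WT and 9.67, 8.84, 9.52 and 7.72 in Double libraries. The Cdc20 libraries were mixed, and its difference of 0.24 ± 0.45 did not pass (limma adjusted p = 0.71).

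Birc5 was 4.55, 6.56 and 4.45 in WT and 8.76, 7.36, 8.28 and 6.54 in Double libraries, with Double replicate 4 just under WT replicate 2. It rose by 2.55 ± 0.60 (limma adjusted p = 0.00638), and Cdca8 rose by 1.46, while Aurkb lay at 1.45 and did not pass (limma adjusted p = 0.0717). Of the 6 centromere and kinetochore genes 4 rose (Cenpa, Cenpf, Nuf2 and Spc25), by 1.49 to 1.91, and Cenpe and Ndc80 did not pass. Of the 9 spindle and motor genes 5 rose. Kif23, the motor of centralspindlin, rose most, by 2.28, and Kif20a least, by 0.64. Kif11, Kif2c, Prc1 and Hmmr did not pass. All 3 cytokinesis genes rose, by 1.31 for Racgap1, 1.93 for Anln and 2.15 for Ect2. Mki67 was 8.10, 9.71 and 7.08 in WT and 10.68, 10.37, 10.84 and 9.58 in Double libraries, so that only Double replicate 4 lay below a WT library. It rose by 2.07 ± 0.63 (limma adjusted p = 0.0241). Top2a was 8.27, 9.59 and 7.32 in WT and 10.58, 9.97, 10.62 and 9.15 in Double libraries, with the same overlap, and rose by 1.69 ± 0.50 (limma adjusted p = 0.0204). Mki67 passed without 3 and Top2a without 4 of the 7 single libraries.

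Against Nkx libraries of the same age, 29 members rose in 6-month Double libraries and none fell, where 10.2% of all genes rose and 11.5% fell. The median log2 fold change was 1.72 (0.03 over all genes), and in 30 members the Double libraries lay above the Nkx libraries without overlap, as in 16.1% of all genes. Plk1 was 6.38, 6.79 and 6.87 in Nkx libraries and rose by 3.70 ± 0.29 (limma adjusted p = 2.18e-05). Mki67 was 7.86, 6.14 and 8.59 in Nkx libraries, all below the Double libraries, and rose by 2.84 ± 0.63 (limma adjusted p = 0.00846). Ttk was 4.73, 3.35 and 3.90 in Nkx libraries and rose by 2.25 ± 0.63 (limma adjusted p = 0.0255), a call that held without 3 of the 7 single libraries. The count of 29 was 14 without Nkx replicate 1 or without Nkx replicate 2, 25 without Nkx replicate 3, and 14 to 33 over all single libraries. The shares of all genes that passed in these refits are not given here. This comparison shares its Double libraries with the comparison against WT.

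**Figure D4:**
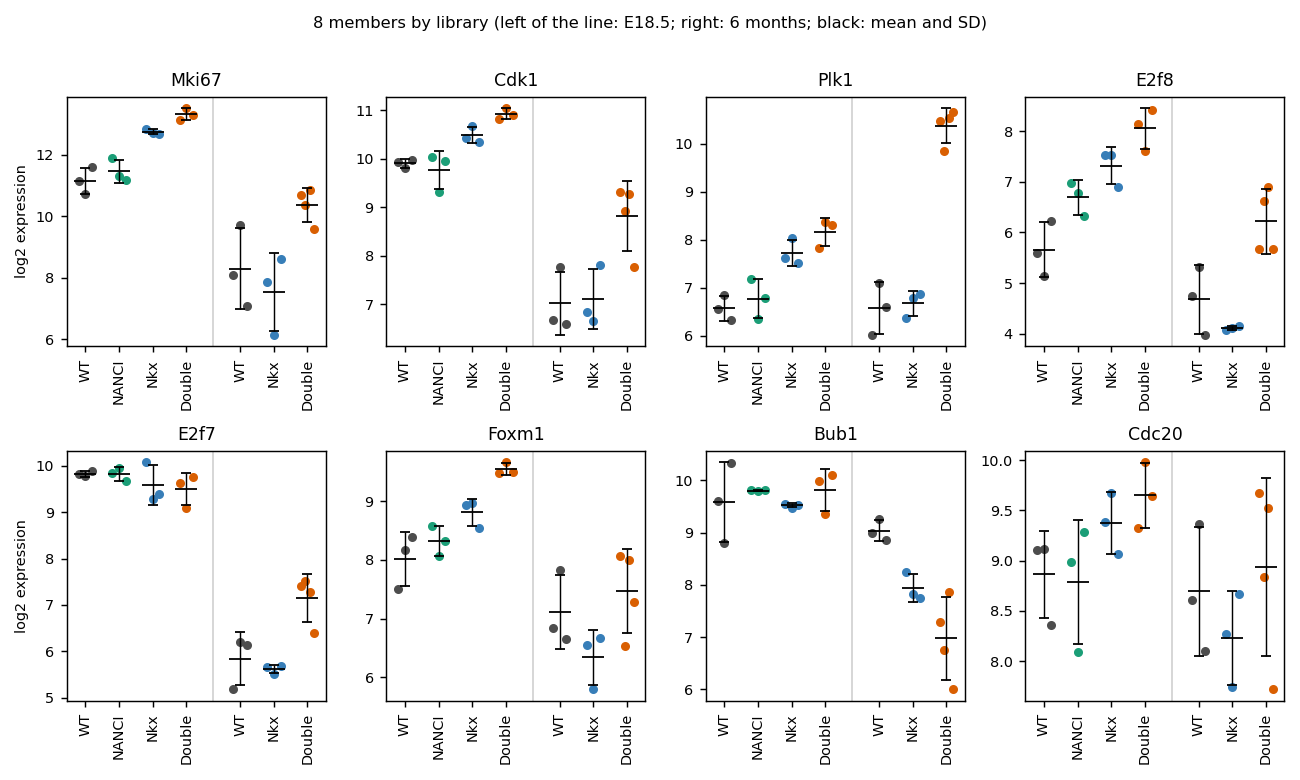
Log2 expression (y axis) of 8 members in each library (points), with the mean and SD of each group in black, at E18.5 left of the grey line and at 6 months right of it. Plk1 lies at 9.84 to 10.66 in 6-month Double libraries against at most 7.11 in WT, and Bub1 falls there. E2f7 lies just below WT in E18.5 Double libraries, a difference that did not pass, and rises at 6 months.

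Markers of other cell types moved with the 6-month results as well. Over all genes 17.9% fell and 18.4% rose in Double libraries against WT. All 10 endothelial markers fell in Double libraries against WT, and their summed log2 level was 15.1 to 16.3 in WT, 14.5 to 15.5 in Nkx and 12.03 to 13.1 in Double libraries. Of 10 mesenchymal markers 9 were measured and 8 fell, with a summed level of 9.96 to 11.7 in Double against 12.9 to 13.8 in WT libraries. Of the leukocyte markers 14 were measured and 1 fell. Their sum ran from 10.5 to 14.1 in Double and from 11.4 to 11.9 in WT libraries, and was highest in Double replicate 2 and lowest in Double replicate 3, which had member means of 8.01 and 8.61. The 12 epithelial markers summed to 21.6 to 21.99 in Double and 21.7 to 22.05 in WT libraries, and of these 3 rose and 5 fell, at differences from −2.05 to 1.52. Against Nkx libraries all 10 endothelial, 6 mesenchymal and 1 leukocyte marker fell in Double libraries, where 11.5% of all genes did. Of the epithelial markers 3 rose and 3 fell against Nkx, where 10.2% of all genes rose. The part of cells of other types in the result was not tested. All 4 Double libraries had a female pattern, as had 1 of 3 WT and 2 of 3 Nkx libraries. With sex as a covariate 29 members passed in Double libraries against WT and 32 against Nkx. Sex pattern and group were partly aligned, and the share of all genes that passed in that fit is not given here.

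The ages were set side by side for Double against WT, without a test, since the cells were enriched in different ways and the values were normalized separately. Of the 41 members, 26 rose at both ages and 10 at E18.5 alone: Foxm1, Bub1b, Ttk, Aurkb, Cenpe, Ndc80, Kif11, Kif2c, Prc1 and Hmmr. E2f7 rose and Bub1 fell at 6 months alone, and Mybl2, Nek2 and Cdc20 passed at neither age. The fold changes of the 2 ages, which share no library, had a Pearson correlation of 0.51 and a Spearman correlation of 0.41 over the 41 genes, which are not independent points. The change was larger at 6 months in 20 members. For Nkx against WT, 27 members rose at E18.5 and none at 6 months.

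**Figure D5:**
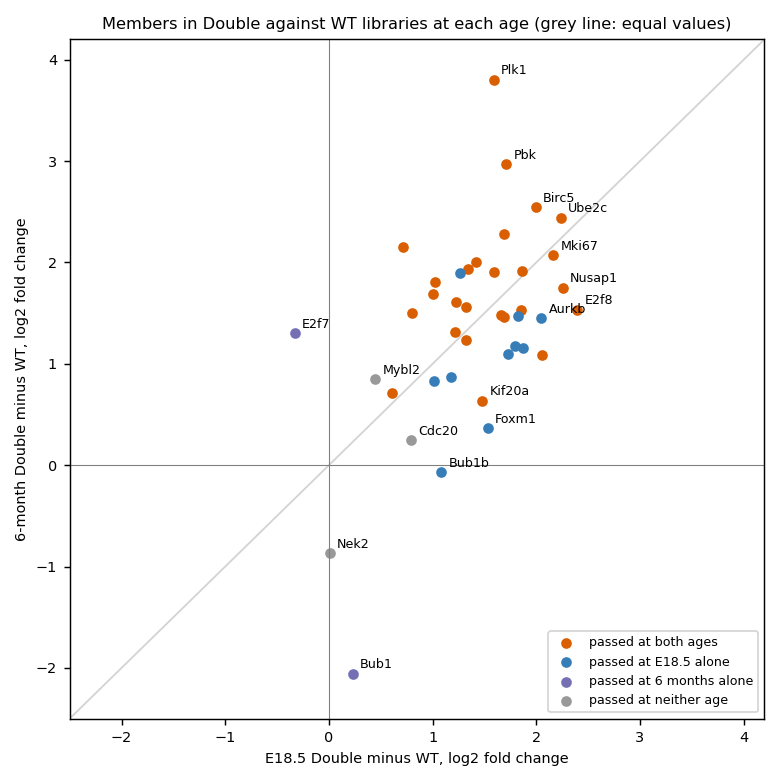
Log2 fold change of Double against WT at E18.5 (x axis) and at 6 months (y axis) for the 41 members, coloured by the age at which each passed, with equal values on the grey line. Plk1 (1.59 and 3.80) lies farthest above the line, and Bub1 (0.23 and −2.06) and E2f7 (−0.33 and 1.30) lie apart from the rest.

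Some members share exon sequence with another gene: 14 overlap an exon of another gene, 12 of them on the opposite strand, and the sources used here do not say whether the counting kept strand. For 8 the opposite partner is a coding gene. For E2f8, Nek2, Plk1 and E2f7 it is not, with longest exon overlaps of 336, 298, 156 and 86 bases, and the same limit holds for their values. In E18.5 Double libraries against WT, Cdc23 (partner of Kif20a), Pdzd11 (of Kif4), Exosc9 (of Ccna2) and Rccd1 (of Prc1) lay between −0.18 and 0.17 and did not pass. 9930104L06Rik (of Cdca8) lay at 0.24 and did not pass either. Oip5 (of Nusap1) was higher by 1.42, in the direction of Nusap1, and did not pass (limma adjusted p = 0.0586). At 6 months Pdzd11 rose by 0.55 (limma adjusted p = 0.0169), as Kif4 did by 0.72. Elovl1, a fatty acid elongase gene that overlaps Cdc20 by 53 bases, fell in Double libraries by 1.03 at E18.5 and by 2.08 at 6 months.

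The members were then compared with other cell cycle genes, by counts. Of 75 further mitotic genes 70 were measured at E18.5, and in Double libraries 42 rose and 2 fell, with a median log2 fold change of 1.10. Over all genes of that comparison 7.13% rose and 7.47% fell. Ska1, of the kinetochore, rose by 2.44 ± 0.59, and Sapcd2, a regulator of spindle orientation, by 2.28 ± 0.50 (limma adjusted p = 0.0152 and 0.00905). Cenpu, of the inner kinetochore, fell by 1.36 ± 0.35 and Cdc25b, the phosphatase that turns on CDK1, fell by 0.70 ± 0.15. In Nkx libraries 18 of the 70 rose and 2 fell, where 3.67% and 3.65% of all genes did: Cenpu fell by 1.59 and Cdc25b by 1.07. Each Cenpu call was lost without 3 of the 6 single libraries and in the fit of 2 groups alone (limma adjusted p = 0.069 for Double and 0.0585 for Nkx). In that fit of Double and WT alone Ska1 (0.0703) and Cdc25b (0.0579) did not pass either. In E18.5 Nkx libraries the largest rises among those named were Cdca5, for sororin of the cohesin ring, by 1.66, and Shcbp1 by 1.61. At 6 months 27 of 68 rose in Double libraries against WT and none fell, with a median of 1.13, where 18.4% of all genes rose and 17.9% fell. Psrc1, a spindle protein, rose by 3.33 ± 0.36 (limma adjusted p = 4.85e-05) and Sapcd2 by 3.28 ± 0.44. Against Nkx, 27 rose and 1 fell, where 10.2% and 11.5% of all genes did. Ska3 rose by 2.88, and Pttg1, for securin, fell by 0.97, a call that held without 2 of the 7 single libraries only and was lost with the replicate block (limma adjusted p = 0.106).

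Genes of DNA replication had smaller medians. Of 44, 20 rose in E18.5 Double libraries, 9 in E18.5 Nkx libraries and 25 in 6-month Double libraries against WT, with medians of 0.63, 0.28 and 0.68 and none fallen. Over all genes 7.13%, 3.67% and 18.4% rose in these comparisons. Orc1, of the origin recognition complex, rose by 2.04 ± 0.46 and Dscc1, of a clamp loader, by 1.77 ± 0.39 in E18.5 Double libraries. In E18.5 Nkx libraries Clspn, for claspin, rose by 1.21 and Mcm5, of the replicative helicase, by 1.04. Clspn was lost there without 3 of the 6 single libraries and Mcm5 in the fit of 2 groups alone (limma adjusted p = 0.0752). In the Double comparison Orc1 was lost without Double replicate 3 (0.0538) and Dscc1 in the fit of 2 groups alone (0.0601). Gins1, of the helicase, rose by 1.97 ± 0.33 and Prim1, for the primase, by 1.58 ± 0.21 in 6-month Double libraries. Against Nkx 26 rose (10.2% of all genes), among them Clspn by 2.06 and the thymidine kinase Tk1 by 2.03. In 6-month Nkx libraries 2 of 44 rose, where 1.52% of all genes did. They were Pcna, for the sliding clamp, by 0.70, and Gmnn, for the licensing inhibitor geminin, by 1.34.

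Genes of the complexes that control the members passed at about the rate of all genes or below it. Of the 12 genes of the DREAM complex and pocket proteins, 1 rose in Double libraries (Tfdp1, by 0.51) with a median of 0.07, and of the 15 core APC/C subunits none passed, with a median of 0.12, where 7.13% of all genes rose. At 6 months the DREAM genes Lin9 and Tfdp1 rose by 1.18 and 0.39 in Double libraries against WT, 2 of 12 where 18.4% of all genes rose. Of the APC/C subunits Anapc15 rose by 0.73 and Anapc10 by 0.67, and Anapc4 fell by 0.42, 3 of 15 where 18.4% of all genes rose and 17.9% fell. Anapc4 passed without 3 of the 7 single libraries and not with the sex covariate (limma adjusted p = 0.227). Anapc10 was lost without WT replicate 3 (0.0809) and with the sex covariate (0.12).

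The G1 genes govern the decision to divide. Of 14, the cyclin gene Ccnd2 rose in E18.5 Nkx libraries (by 0.94), where 3.67% of all genes rose. Ccnd2 (by 1.49) and the phosphatase gene Cdc25a (by 0.51) rose in E18.5 Double libraries, where 7.13% of all genes rose. In 6-month Double libraries 5 rose and 1 fell against WT, where 18.4% and 17.9% of all genes did. Mycn, for the growth factor-responsive regulator N-Myc, rose by 2.83 ± 0.54 (limma adjusted p = 0.00193), Myc by 1.28, Ccnd1 by 1.01, Cdc25a by 0.63 and Ccne2 by 0.55, and Ccnd3 fell by 1.24 ± 0.10 (limma adjusted p = 9.07e-06). Against Nkx, Mycn rose by 3.02 and Ccnd1 by 1.005, while E2f2 fell by 0.77 and Ccnd3 by 0.55. The Myc call was lost without WT replicate 2 (limma adjusted p = 0.0734) or 3 (0.0513), and the E2f2 call without each of the 3 Nkx libraries in turn (0.0508 to 0.0703). Of 5 measured inhibitors of cyclin-dependent kinases, Cdkn1a, for p21, fell in E18.5 Nkx (by 1.14) and Double libraries (by 0.78). Against WT, 3.65% of all genes fell in E18.5 Nkx, 7.47% in E18.5 Double and 17.9% in 6-month Double libraries. Against Nkx, 11.5% fell in 6-month Double libraries. Cdkn2b, for p15, fell in E18.5 Double libraries (by 0.76) and at 6 months in Double against WT (by 1.07) and Nkx (by 0.90). The call against Nkx held without 3 of the 7 single libraries only, and the call against WT was lost without WT replicate 1 (limma adjusted p = 0.0553) and with the sex covariate (0.142). Also at 6 months, Cdkn1c, for p57, fell by 1.04 and Cdkn2c, for p18, rose by 1.23 in Double libraries against WT. Cdkn1c was lost with the sex covariate (0.0802). Against Nkx, Cdkn2c rose by 1.18, and Cdkn1b, for p27, fell by 0.45, a call that held without 1 of the 7 single libraries only.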

How the data were processed

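RNA of lung epithelium was measured in 22 libraries. The deposited files hold 1 log2 value per Ensembl gene identifier and library; the build mm9 and the tools STAR and limma are named, without role or version, by the submitters' processing notes. Within an age the libraries share nearly the same values by rank (median SD at equal rank 0.00187 at E18.5 and 0.00242 at 6 months), so the values were taken as quantile-normalized. Read totals are unknown. Symbols and gene coordinates came from GENCODE M21 (GRCm38), matched on identifier, and promoters from RefSeq (GRCm38.p6); no mm9 coordinate was used.

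Each age was fitted with limma 3.58.1 in R 4.3.3 over all its libraries, with group as the factor, a mean-variance trend and Benjamini-Hochberg adjustment over all genes (threshold 0.05). No value was filtered or imputed. On simulated data with a shift of 1 or 2 for 200 genes, 47% and 80% were recovered for E18.5 Double against WT (13750 genes) and 58% and 81% for 6-month Double against WT (15958 genes).

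Values are given by library for Mki67, Top2a, Cdk1, Ccnb1, Plk1, Foxm1, Mybl2, E2f7, E2f8 and Cdc20, for the 3 largest passing changes per direction and comparison, for the 2 smallest p-values where none passed, and for the largest change of each role in E18.5 Double against WT; of other lists, up to 2 passing genes per direction where at least 3 passed. Further members were added after their values were seen. The members and lists were chosen with earlier results of these data known. Alternatives were leaving out each library, a fit of 2 groups alone, a replicate block, a mean of at least 5, values under 4 raised to 4, cyclic loess, no trend, robust moderation, array weights, and as a covariate the sex pattern or, standing in for depth, the number of distinct values up to the library median. After seeing the data 2 were added: leaving out both 6-month libraries that stand apart, and the block in a fit of E18.5 Double and Nkx alone. Samples of equal number in E18.5 Nkx and Double deviated together from their group means across genes (correlations 0.298, 0.504 and 0.18). These numbers were therefore read as pairs, an assumption that comes from the data, and no other comparison met this. Equal numbers of these groups also had the same sex pattern, and E18.5 libraries of unlike number reached a correlation of 0.427. Pairing is thus not established.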

Additional observations from a re-analysis of the deposited data

Results flagged for a closer look

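In 6-month Double libraries, Nusap1 was 6.868 in replicate 4 and 8.46 to 8.76 in the other 3 libraries. The gap was 0.844 of the whole range, above the critical value of Dixon's test for 4 samples. This was 1 of 41 members tested, where chance flags about 1 in 20 groups.

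For 10 of 82 pairs of a member and a contrast, every library of the changed genotype lay on one side of the WT mean at E18.5 and on the other at 6 months. The difference between the ages was not tested. For Nkx against WT the log2 fold changes at E18.5 and 6 months were 0.79 and −0.77 for Foxm1, 1.66 and −0.574 for E2f8, 0.55 and −1.18 for Bub1b, 1.59 and −0.781 for Ttk, and 0.51 and −0.465 for Cdc20. They were 1.31 and −0.771 for Cenpe, 1.36 and −0.655 for Kif11, 0.62 and −0.703 for Prc1, and 1.41 and −0.388 for Hmmr. The 6-month WT mean includes WT replicate 2, which was high in most members. For Double against WT, E2f7 was at −0.33 at E18.5 and 1.3 at 6 months.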

How the results depend on the processing

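Left out one at a time, the libraries gave these ranges of members that passed: 14 to 31 for E18.5 Nkx against WT, 14 to 33 for 6-month Double against WT and 14 to 33 for 6-month Double against Nkx. In the fit of 2 groups alone the count was 11 for E18.5 Nkx against WT and 1 for 6-month Nkx against WT. With array weights it was 6 for E18.5 NANCI against WT and 1 for 6-month Nkx against WT, and with depth as a covariate 1 for the latter. These refit counts stand without the share of all genes that passed in the same fit. Cdc20 in 6-month Double against WT, which did not pass, ran from −0.0529 (without WT replicate 3) to 0.65 as single libraries were left out, and was also just below 0 without Double replicate 1. With the replicate block, 27 members passed in E18.5 Nkx, 35 in E18.5 Double and 27 in 6-month Double against WT, 25 in 6-month Double against Nkx, and 0 in the other 3 comparisons. For the E18.5 Double and Nkx libraries read as pairs, the block gave 0 also in a fit of the 2 groups alone. The block moved no count by over 1.5 times, and the share of all genes that passed with it is not given here. Of 80 named fold changes, 50 kept their direction and side of the threshold under every alternative run; over 1366 refits, 94 lost the threshold, 6 gained it and 2 turned. Read totals are unknown, and 9 members were under 5 in a 6-month library, so low 6-month values are the least certain.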
